A study of Mus musculus with 2 samples.

Results

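Levels of Acod1, which makes itaconate, and of 8 related genes were measured in RNA of a nuclear preparation from mouse macrophages. The 8 genes belong to the tricarboxylic acid (TCA) cycle or to linked citrate and isocitrate metabolism. The 9 genes, Acod1, Cs, Idh1, Idh3a, Sdha, Sdhb, Mdh2, Slc25a1 and Acly, were picked by symbol for their roles and each matched 1 of 55536 annotated genes, of which 22028 are protein-coding. Acod1 stood at 1295 TPM in replicate 1 and at 924 TPM in replicate 2, while the other 8 genes lay between 1.71 and 35.8 TPM. TPM is a read share corrected for transcript length, so that levels of different genes can be compared.

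As background, citrate synthase feeds the TCA cycle in the mitochondrial matrix by joining acetyl-CoA to oxaloacetate, and citrate is then turned into isocitrate by way of cis-aconitate. Aconitate decarboxylase 1, the product of Acod1 (also called Irg1), takes cis-aconitate out of the cycle and makes itaconate, which inhibits succinate dehydrogenase. Macrophages activated through Toll-like receptors are known for high Acod1 expression, for itaconate and succinate accumulation, and for export of citrate to the cytosol, where ATP citrate lyase splits it into acetyl-CoA and oxaloacetate.

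The cells were primary bone marrow-derived macrophages of C57BL/6J mice with no genetic change named in the labels. All received 100 ng/ml Lipid A, the membrane anchor of bacterial endotoxin and a ligand of TLR4, for 12 hours, then 12 hours without it, then 100 ng/ml again for 60 minutes. Ribosomal RNA was depleted before sequencing, from 1 µg of RNA in replicate 1 and 500 ng in replicate 2. The labels name the fraction both as nucleoplasmic and as nuclear, record neither age nor sex, and give both libraries 1 donor identifier, so the spread between them may be technical. With 1 treatment group there is no contrast between conditions and no test was made; untreated cells and cells given Lipid A a single time were not analysed here. RNA was measured and no protein, enzyme activity or metabolite, and in bulk RNA fewer cells of a type cannot be told apart from less RNA per cell.

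The libraries differed in depth, with 23630328 expected counts on annotated genes in replicate 1 and 15687634 in replicate 2. All 7 macrophage markers (Adgre1, Csf1r, Cd68, Lyz2, Itgam, Fcgr1 and Mertk) were above 10 TPM in both libraries, with a summed level of 4100 TPM for replicate 1 and 2393 TPM for replicate 2. None of 13 markers of neutrophils, T and B cells, dendritic cells and stromal cells reached 1 TPM; together they summed to 1.70 and 1.37 TPM, and Elane and Cd3e were among those listed at 0 in both libraries. The TPM scale differed between the libraries: the median of 8773 protein-coding genes of the nuclear genome at 1 TPM or more lay at -0.46 on the log2 scale of replicate 2 over replicate 1. With a second quantifier, whose tables were deposited beside the first, this median was 0.38, so the direction of a raw TPM difference between libraries depends on the quantifier. Differences between libraries are therefore given relative to that median ("relative log2 ratio") and on expected counts scaled by TMM, a method that sets the bulk of genes equal. On the first of these measures 6 of the 7 macrophage markers were lower in replicate 2, with a median relative log2 ratio of -0.39, and Fcgr1 had 0.438 of its replicate 1 level by TMM; the part of this shift in the results was not tested.

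Acod1 (ENSMUSG00000022126.6, mm10 chromosome 14, 103046977 to 103056573, plus strand) held 82298 expected counts in replicate 1 and 52511 in replicate 2. These were 0.348% of the counts on annotated genes in the first library, where the 95% Wilson interval ran from 0.346 to 0.351, and 0.335% in the second, where it ran from 0.332 to 0.338; such intervals cover counting error only. Its level was 1109 ± 262 TPM (SD, n = 2), rank 19 among protein-coding genes of the nuclear genome in replicate 1 and rank 13 in replicate 2. The libraries lay close together once the scale was removed, with a relative log2 ratio of -0.02 and a TMM log2 ratio of -0.04. The second quantifier gave the opposite order, with 436 TPM for replicate 1 and 563 TPM for replicate 2. The annotation holds 1 transcript of the gene, Acod1-201, with 5 exons, 2623 bases and a coding length of 1464 bases, so no reads had to be divided among isoforms. The deposited TPM intervals, 1230 to 1249 in replicate 1 and 876 to 892 in replicate 2, surround a separate posterior mean (1239 and 884 TPM), and both lie below the TPM itself.

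Acod1 exceeded every one of the other 8 genes by at least 1 order of magnitude in both libraries. The smallest distance was to Sdha, over which Acod1 was 36.2-fold higher in replicate 1 and 32.7-fold in replicate 2. Over Cs, whose product makes the citrate from which itaconate derives, it was 52.6-fold and 43.0-fold higher. Over Slc25a1 and Acly, which handle citrate outside the matrix, it was 132-fold and 134-fold higher in the former case, and 74.5-fold and 92.5-fold in the latter. The widest distance was to Idh3a, at 757-fold and 453-fold. On the log2(TPM + 0.1) scale Acod1 stood 6.30 ± 0.22 (SD, n = 2) above the median of the other 8 genes, 6.15 in replicate 1 and 6.45 in replicate 2. The second quantifier kept ratios of 24.3 and 24.6 over Sdha and of 132 and 134 over Slc25a1.

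**Figure D1:**
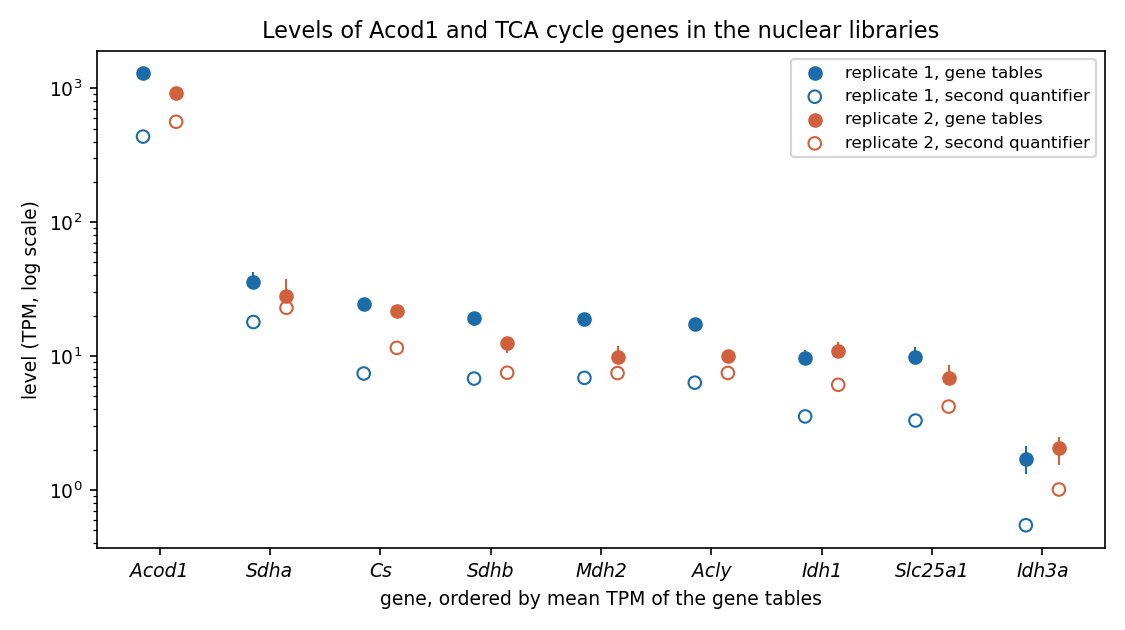
Level of each gene in TPM on a log axis; filled points are the gene tables, open points the second quantifier, and vertical lines the deposited TPM intervals of the gene tables, which surround a posterior mean. Acod1 sits at 1295 and 924 TPM, Sdha follows at 35.8 and 28.3 TPM, and Idh3a is lowest at 1.71 and 2.04 TPM.

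All 9 genes reached 1 TPM in both libraries, a level that 39.9% of annotated protein-coding genes reached. Acod1, Cs, Sdha and Sdhb (4 of 9) reached 10 TPM in both, against 14.9% of protein-coding genes, and Acod1 alone reached 100 TPM, against 1.43%. Just under the 10 TPM line lay Acly (9.99 TPM) and Mdh2 (9.77 TPM) in replicate 2 and Idh1 (9.62 TPM) in replicate 1, so membership at this line turned on single libraries. In replicate 2 Sdhb passed the line by its gene total (12.5 TPM), while its coding transcript Sdhb-201 was at 7.96 TPM. By mean level the order was Acod1, Sdha, Cs, Sdhb, Mdh2, Acly, Idh1, Slc25a1, Idh3a. Of the 8 neighbouring pairs in that order, 4 were apart in both libraries by their deposited intervals and by their ranges: Acod1 over Sdha, Sdha over Cs, Cs over Sdhb, and Slc25a1 over Idh3a. The 5 genes from Sdhb to Slc25a1 formed a stretch in which no neighbours differed beyond their spread. The step from Sdha to Cs is one of gene totals, which include noncoding transcripts. Between the coding transcripts, Sdha-201 (26.2 and 17.8 TPM) led Cs-201 (21.5 and 18.0 TPM) in the first library but not in the second. With the second quantifier Sdha-201 (7.74 and 9.85 TPM) stayed ahead of Cs-201 (6.34 and 9.44 TPM) in both.

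Citrate synthase, encoded by Cs (ENSMUSG00000005683.8, mm10 chromosome 10, 128337734 to 128362479, plus strand), catalyses the entry step of the cycle. It was at 24.6 TPM in replicate 1 and 21.5 TPM in replicate 2 (mean 23.1 ± 2.18, SD, n = 2), from 1766 and 1383 expected counts. Relative to the median gene it was slightly higher in replicate 2, with a relative log2 ratio of 0.27 and a TMM log2 ratio of 0.26. Most of its TPM, 87.4% and 83.6%, fell on the coding transcript Cs-201. The remainder, 12.6% and 16.4%, fell on Cs-202, an unspliced transcript annotated as retained intron that runs 2853 bases past exon 1 into intron 1 (chr10:128337960-128340812). Cs-202 stood at 3.09 TPM in the first library and 3.53 TPM in the second, and the second quantifier gave it 14.3% and 18.0%. Because those 2853 bases lie in no other transcript of the gene, this share rests on reads within the intron. The edge at which Cs-202 leaves the coding transcript is shown from chr10:128337930-128337989 (mm10, plus strand, GENCODE M21 transcript), with exon 1 in lower case and the retained intron in capitals.
Cs-202 exon to intron: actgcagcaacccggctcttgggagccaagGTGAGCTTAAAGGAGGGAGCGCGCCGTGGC
Cs was the only one of the 9 genes with a similar annotated copy at 90% identity over 200 bases or more. The copies are Csl, with 91.9% identity over 1522 bases and 0 expected counts in both libraries, and the pseudogene Gm48254, with 25 and 15 expected counts, so few reads were placed on them.

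Isocitrate is oxidised by the NAD-dependent enzyme IDH3 in the matrix, a complex whose catalytic alpha subunit is encoded by Idh3a (ENSMUSG00000032279.11, mm10 chromosome 9, 54586334 to 54604661, plus strand). Idh3a was the lowest of the 9 genes at 1.71 TPM in replicate 1 and 2.04 TPM in replicate 2 (mean 1.88 ± 0.233, SD, n = 2), from 81 and 77 expected counts. The other subunits of the same complex stood above it. Idh3b, the beta subunit, was 13.3-fold higher in replicate 1 and 8.87-fold in replicate 2, and Idh3g, the gamma subunit, was 3.08-fold and 2.08-fold higher. The second quantifier gave 13.2-fold and 10.3-fold for Idh3b. Idh3a had the highest relative log2 ratio of the 9 genes, 0.71, with 4.01% of protein-coding genes at 1 TPM or more in both libraries above it. Its TMM log2 ratio was 0.54.

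Much of the Idh3a signal was assigned outside the coding transcripts. The retained-intron transcripts of the gene took 62.2% of its TPM in replicate 1 and 83.4% in replicate 2. Idh3a-203 alone held 51.7% and 75.1%, and Idh3a-202 10.5% and 8.29%. Of the coding transcripts, Idh3a-201 held 27.3% in replicate 1 and was listed at 0 in replicate 2, while Idh3a-205 held 10.5% and 16.6%. At 27.0 expected counts or fewer for Idh3a-201 this split is imprecise, and the posterior mean gave Idh3a-203 36.3% and 62.5%. The second quantifier put 45.85% and 86.14% on retained-intron transcripts. It also gave 26.15% and 0% to Idh3a-204, annotated as a target of nonsense-mediated decay, which the first quantifier listed at 0 in both libraries. Idh3a-203 starts inside an intron. Its first 72 bases (chr9:54595094-54595165) lie in no other transcript, and the rest is exons that the coding transcripts also hold, so only reads on those 72 bases are its own. The end of this intron is shown from chr9:54595136-54595195 (mm10, plus strand, GENCODE M21 transcript), with intron in capitals and the next exon in lower case.
Idh3a-203 intron to exon: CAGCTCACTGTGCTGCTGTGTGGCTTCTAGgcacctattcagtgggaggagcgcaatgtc

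Idh1 (ENSMUSG00000025950.16, mm10 chromosome 1, 65158616 to 65186500, minus strand) encodes the NADP-dependent isocitrate dehydrogenase of the cytosol and peroxisomes, which interconverts isocitrate and 2-oxoglutarate outside the cycle. It was at 9.62 TPM in replicate 1 and 10.95 TPM in replicate 2 (mean 10.3 ± 0.94, SD, n = 2), from 520 and 528 expected counts. These near-equal counts came from libraries of unequal depth. After TMM scaling, Idh1 was 1.55-fold higher in replicate 2. By this scaling it was the only gene of the 9 past 1.5-fold in that direction, a mark that 12.1% of 14052 genes passed. On the relative log2 ratio Idh3a (0.71) lay above Idh1 (0.65). Idh1 stood above Idh3a in both libraries. Its transcripts are all coding, and Idh1-201 held 96.4% and 97.1% of its TPM. The second quantifier gave Idh1-201 77.8% and 91.0%, and the posterior mean 87.3% in both libraries.

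Succinate dehydrogenase, the complex that itaconate inhibits, oxidises succinate to fumarate and passes the electrons to ubiquinone. Its flavoprotein subunit, which binds succinate, is encoded by Sdha (ENSMUSG00000021577.14, mm10 chromosome 13, 74322254 to 74350280, minus strand). Sdha was the second highest of the 9 genes at 35.8 TPM in replicate 1 and 28.3 TPM in replicate 2 (mean 32.0 ± 5.31, SD, n = 2), from 1983 and 1225 expected counts. The iron-sulphur subunit gene Sdhb (ENSMUSG00000009863.14, mm10 chromosome 4, 140961203 to 140979193, plus strand) was at 19.3 TPM and 12.5 TPM (mean 15.9 ± 4.84, SD, n = 2), from 469 and 265 expected counts. Sdha exceeded Sdhb 1.85-fold in replicate 1 and 2.27-fold in replicate 2. It exceeded Sdhc, a membrane anchor subunit, 3.26-fold and 3.35-fold, and Sdhd, the other anchor subunit, 2.74-fold and 3.45-fold. Sdhc was at 11.0 and 8.44 TPM and Sdhd at 13.1 and 8.19 TPM. By gene totals the order was Sdha, Sdhb and then the anchor subunits in both libraries, while Sdhc and Sdhd changed places. The Sdhb total includes noncoding transcripts. Its coding transcript Sdhb-201 stood at 15.45 TPM in replicate 1 and at 7.96 TPM in replicate 2, there below the totals of Sdhc and Sdhd. With the second quantifier Sdhc was above Sdhd in both libraries, and Sdha exceeded Sdhd 4.58-fold and 5.09-fold. Neither Sdha nor Sdhb moved far between libraries: the relative log2 ratios were 0.12 and -0.16, and the TMM log2 ratios -0.08 and -0.21, so the sign for Sdha depends on the scale.

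Sdha carried 73.3% of its TPM in replicate 1 and 62.9% in replicate 2 on the coding transcript Sdha-201, while the second quantifier gave that transcript 43.2% and 43.0% and processed transcripts 22.3% and 20.6%. In the gene tables' quantifier the retained-intron transcripts took 23.3% and 36.4%, spread over Sdha-206 with 12.6% and 15.7%, Sdha-205 with 9.56% and 6.83%, Sdha-202 with 1.06% and 6.37%, and Sdha-204 with 0% and 7.47%. These transcripts are short and the TPM correction for length weighs heavily on them. On the 239 bases of Sdha-204, 2 expected counts in replicate 2 became 2.11 TPM. By expected counts the retained-intron share of Sdha was 6.02% and 7.99%. The rank of Sdha as second highest gene rests on totals that include these short transcripts. In the gene tables' quantifier, Sdha-201 alone was not above Cs-201 in replicate 2. The pseudogene Gm16125 lies within Sdha on the opposite strand and held 7 and 5 expected counts; as the strand setting is not given, its reads and those of Sdha cannot be told apart there.

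Sdhb has no transcript annotated as retained intron, and 17.5% of its TPM in replicate 1 and 33.6% in replicate 2 fell on Sdhb-202, annotated as a processed transcript. Sdhb-202 shares its exons with the coding transcript up to exon 5 and then runs 517 bases into the following intron (chr4:140973781-140974297), bases that lie in no other Sdhb transcript. It rested on 76.4 and 83.7 expected counts, and the coding transcript Sdhb-201 on 380 and 174. The second quantifier gave Sdhb-202 18.9% and 27.3%. Its intron edge is shown from chr4:140973751-140973810 (mm10, plus strand, GENCODE M21 transcript), with exon 5 in lower case and the intron in capitals.
Sdhb-202 exon to intron: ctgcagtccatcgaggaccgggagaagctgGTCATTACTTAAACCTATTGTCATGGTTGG

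Mdh2 (ENSMUSG00000019179.10, mm10 chromosome 5, 135778480 to 135790398, plus strand) encodes mitochondrial malate dehydrogenase, which closes the cycle by making oxaloacetate. It was at 19.0 TPM in replicate 1 and 9.77 TPM in replicate 2 (mean 14.4 ± 6.55, SD, n = 2), from 538 and 278 expected counts. Of the 9 genes it had the lowest relative log2 ratio, -0.49, and the lowest TMM log2 ratio, -0.34. Of protein-coding genes at 1 TPM or more in both libraries, 88.5% had a relative ratio above it. The coding transcript Mdh2-201 held 53.5% of its TPM in replicate 1 and 72.6% in replicate 2, and 37.6% and 42.2% with the second quantifier.

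The other Mdh2 transcripts differed between libraries. Mdh2-203, annotated as a target of nonsense-mediated decay, held 27.8% of the TPM in replicate 1 and was listed at 0 in replicate 2, while the second quantifier gave it 32.0% and 14.6%. Only 7 of its bases lie in no other transcript, so its reads are separated from those of the coding transcript mainly by a junction that skips the 169 bases of exon 2 (chr5:135783305-135783473). Retained-intron transcripts took 18.7% and 26.2%, and 28.5% and 43.2% with the second quantifier. The main one, Mdh2-206, is unspliced, runs 1440 bases past exon 1 (chr5:135778802-135780241) and stood at 1.49 and 1.91 TPM, or 7.83% and 19.6%. Mdh2-202 held 5.42% and 5.12%, and Mdh2-204 5.47% and 1.54%. The edge of Mdh2-206 (chr5:135778772-135778831, mm10, plus strand) and the junction of Mdh2-203 (20 bases on each side of it, between chr5:135778782-135784203, mm10, plus strand) are shown from GENCODE M21 transcripts; capitals mark intron.
Mdh2-206 exon to intron: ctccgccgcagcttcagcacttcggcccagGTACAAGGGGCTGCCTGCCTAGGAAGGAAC
Mdh2-203 junction: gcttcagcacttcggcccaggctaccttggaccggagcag
Both start from the same last bases of exon 1, and Mdh2-206 goes on into the intron where Mdh2-203 joins exon 3.

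Citrate leaves the matrix through the mitochondrial citrate carrier, encoded by Slc25a1 (ENSMUSG00000003528.15, mm10 chromosome 16, 17925223 to 17928219, minus strand). Slc25a1 was at 9.80 TPM in replicate 1 and 6.90 TPM in replicate 2 (mean 8.35 ± 2.05, SD, n = 2), from 337 and 227 expected counts. Its relative log2 ratio of -0.04 and TMM log2 ratio of 0.04 put it next to Acod1 at the centre of all genes. The coding transcript Slc25a1-201 held 84.8% and 93.0% of its TPM. Its retained-intron transcripts took 15.2% and 6.96%; Slc25a1-205 held 7.35% in replicate 1 and was listed at 0 in replicate 2, and Slc25a1-202 held 5.0% and 3.33%.

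ATP citrate lyase, encoded by Acly (ENSMUSG00000020917.17, mm10 chromosome 11, 100476353 to 100528000, minus strand), splits exported citrate in the cytosol and supplies acetyl-CoA for fatty acid and sterol synthesis and for protein acetylation. Acly was at 17.4 TPM in replicate 1 and 9.99 TPM in replicate 2 (mean 13.7 ± 5.23, SD, n = 2), from 1705 and 944 expected counts. It stood above Slc25a1 in both libraries. Relative to the median gene Acly was lower in replicate 2, with a relative log2 ratio of -0.33 and a TMM log2 ratio of -0.24. The coding share was 93.3% and 98.8%, and Acly-206, a processed transcript, held 6.67% and 1.20%. The second quantifier gave Acly-206 8.77% and 11.9%, with replicate 2 the higher library.

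The coding output of Acly was divided between transcripts with and without a cassette exon of 30 bases (chr11:100503160-100503189), which keeps the reading frame: the coding length is 3303 bases with it and 3273 bases without it. Acly-203, which includes the exon, held 38.2% of the gene's TPM in replicate 1 and 37.3% in replicate 2, and Acly-207, which skips it, held 51.4% and 61.5%. Over the coding transcripts that span the site, inclusion was 44.9% and 37.8%. The second quantifier put it at 55.6% and 54.9%, on the other side of equal use. Inclusion here counts Acly-202, a coding transcript of 1741 bases, as holding the exon. Acly-202 held 18.85% and 17.48% of the gene's TPM with the second quantifier, against 3.74% and 0% in the gene tables. Between the longer forms, the second quantifier kept Acly-203 (29.33% and 29.35%) below Acly-207 (38.32% and 38.48%). The side of equal use thus turned on Acly-202, and these data do not set which form is more abundant. Acly-207 also lacks the first exon of Acly-203, and the split can draw on reads from there as well. The exon is shown in capitals between 20 bases of its neighbours, as transcribed from the minus strand (chr11:100498743-100504222, mm10, GENCODE M21 transcripts).
Acly-203 with the cassette exon: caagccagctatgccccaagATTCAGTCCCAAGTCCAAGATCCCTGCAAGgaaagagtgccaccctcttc
Acly-207 without the cassette exon: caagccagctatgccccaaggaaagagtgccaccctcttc

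Side by side, 4 of the 9 genes (Cs, Idh3a, Sdha and Mdh2) had 10% or more of their TPM on retained-intron transcripts in both libraries. Among protein-coding genes at 1 TPM or more in both libraries 42.9% did so, and among those at 10 TPM or more 51.8%, so the count is near the background and is not particular to these genes. Acod1, Idh1, Sdhb and Acly have no such transcript in the annotation, and their share of 0 says nothing about their introns. The median retained-intron share over protein-coding genes at 1 TPM or more in both libraries was 7.90% in replicate 1 and 8.46% in replicate 2. Protein-coding genes without such a transcript entered this median, and the background shares above, at 0. Of the 5 genes with such transcripts, 4 had a larger share in replicate 2, and Slc25a1 had a smaller one. Transcripts that retain an intron cannot be told apart here from precursor RNA that has yet to be spliced.

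**Figure D2:**
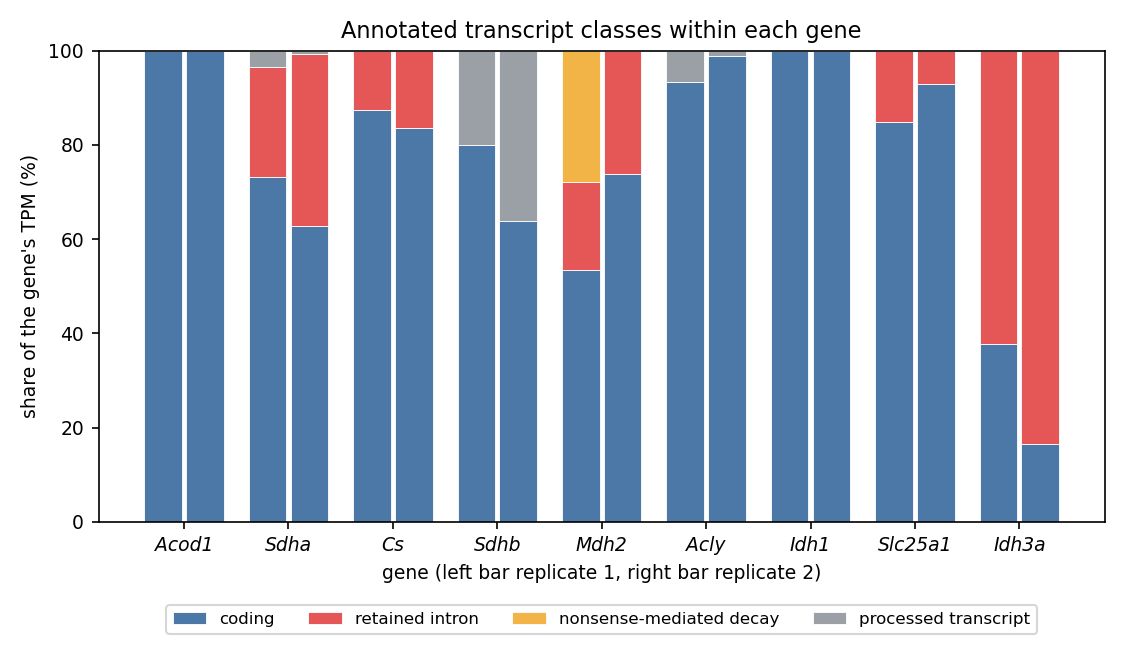
Share of each gene's TPM, in percent, on annotated transcript classes, with replicate 1 as the left bar and replicate 2 as the right bar of each pair. Acod1 and Idh1 are wholly coding, Idh3a has 62.2% and 83.4% on retained-intron transcripts, and the nonsense-mediated decay share of Mdh2 is 27.8% in replicate 1 and 0% in replicate 2.

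None of the 9 genes was over 2-fold apart between the libraries on TMM-scaled expected counts, as against 8.59% of 14052 genes with a mean of 10 counts or more. The median relative log2 ratio of the 9 was -0.02, with 5 genes lower and 4 higher in replicate 2. Idh3a at 0.71 and Idh1 at 0.65 were the highest, and Mdh2 at -0.49 and Acly at -0.33 the lowest. Among protein-coding genes at 1 TPM or more in both libraries the 5th and 95th percentiles of this ratio were -0.70 and 0.66, so Idh3a alone lay outside them.

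**Figure D3:**
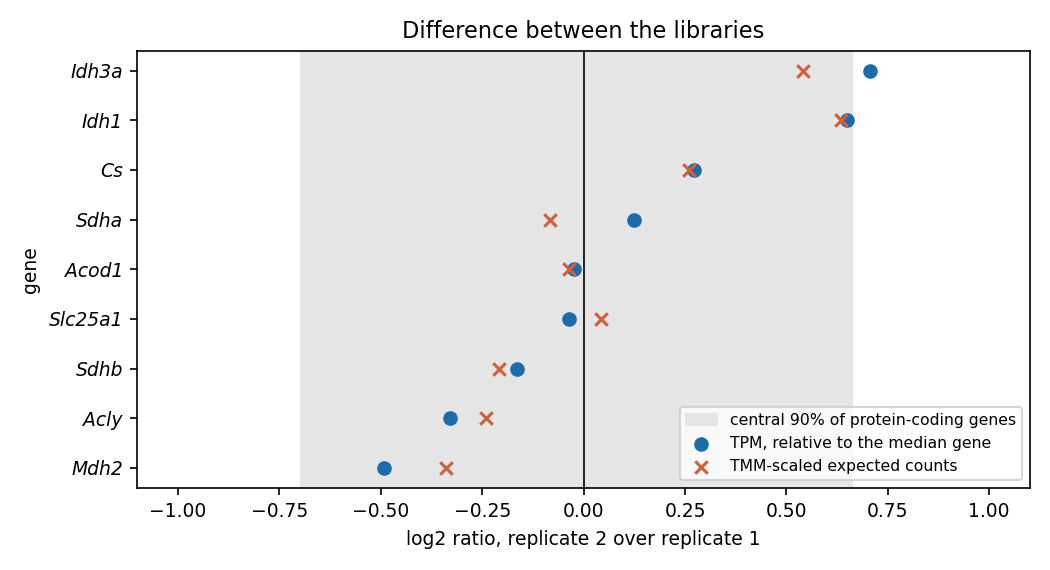
Log2 ratio of replicate 2 over replicate 1 for each gene, as TPM relative to the median protein-coding gene (points) and as TMM-scaled expected counts (crosses). The grey band, which applies to the points only, runs from -0.70 to 0.66. These are the 5th and 95th percentiles of protein-coding genes at 1 TPM or more in both libraries. Idh3a at 0.71 sits outside the band, Acod1 and Slc25a1 lie near 0, and the sign for Sdha and Slc25a1 differs between the scales.

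Genes that complete the pathway were mostly present at moderate levels. Of 37 genes in 6 lists, 32 reached 1 TPM in both libraries (background 39.9%) and 7 reached 10 TPM (background 14.9%), and none was over 2-fold apart by TMM. All 13 other TCA cycle enzymes reached 1 TPM and 5 reached 10 TPM, with a list median of 11.0 TPM for replicate 1 and 8.19 TPM for replicate 2. Dlst, the succinyltransferase subunit of the 2-oxoglutarate dehydrogenase complex, was highest at 47.9 and 43.4 TPM. Idh3b was at 22.7 and 18.1 TPM and Dld, the shared dihydrolipoamide dehydrogenase, at 22.5 and 18.5 TPM.

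Of the cytosolic counterparts and malic enzymes, 3 of 4 reached 1 TPM in both libraries. Mdh1, cytosolic malate dehydrogenase, was at 6.67 and 7.28 TPM, below the gene total of the mitochondrial form Mdh2 in both libraries. In replicate 2 their deposited intervals overlapped, at 5.63 to 9.39 TPM for Mdh1 and 8.98 to 11.86 TPM for Mdh2. The coding transcript Mdh2-201 alone, at 10.18 and 7.09 TPM, was above Mdh1 in replicate 1 but not in replicate 2. Aco1, cytosolic aconitase, was at 6.26 and 4.95 TPM. Me2, the mitochondrial malic enzyme, was at 2.10 and 1.14 TPM, and the cytosolic malic enzyme Me1, which makes NADPH, at 0.38 and 0.30 TPM. Pyruvate entry had 6 of 7 genes at 1 TPM or more. Its highest was Mpc1, a subunit of the mitochondrial pyruvate carrier, at 20.8 and 22.7 TPM. The pyruvate dehydrogenase subunit genes Pdhb and Pdha1 had 11.3 and 11.0 TPM and 9.84 and 8.36 TPM. Mpc2, the partner of Mpc1, was lower at 5.96 and 2.13 TPM. Pcx, the pyruvate carboxylase gene, was below 1 TPM at 0.20 and 0.13 TPM, while the second quantifier gave it 3.82 and 5.66 TPM.

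Of 4 assembly factors of succinate dehydrogenase, 2 reached 1 TPM in both libraries. Sdhaf2, which helps attach the flavin to the Sdha product, was at 7.92 and 7.74 TPM. Sdhaf1 was at 1.66 and 1.13 TPM, Sdhaf4 at 1.20 and 0.61 TPM, and Sdhaf3 at 0.32 and 0.26 TPM, all far below Sdha itself. All 4 genes of the list on acetyl-CoA and fatty acid synthesis reached 1 TPM and none reached 10 TPM. Acaca, acetyl-CoA carboxylase 1, was at 8.63 and 5.86 TPM and Fasn, fatty acid synthase, at 4.36 and 2.90 TPM. Acss2, which makes acetyl-CoA from acetate and so bypasses Acly, was at 4.53 and 2.11 TPM, and Mcat, of mitochondrial fatty acid synthesis, at 3.50 and 1.86 TPM. Acly exceeded all 4 in both libraries.

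Among carboxylate carriers and genes of itaconate breakdown, 4 of 5 reached 1 TPM in both libraries. Slc25a10, the dicarboxylate carrier, was at 18.6 and 8.38 TPM and Slc25a11, the 2-oxoglutarate carrier, at 13.7 and 9.76 TPM, both above the citrate carrier gene Slc25a1. Auh, a matrix hydratase, was at 4.97 and 3.26 TPM, and Slc25a13, an aspartate-glutamate carrier, at 2.65 and 2.35 TPM. Clybl, the enzyme that cleaves citramalyl-CoA in itaconate breakdown, was at 0.74 and 0.71 TPM, below 1 TPM in both libraries. Clybl lay below the gene totals of all 9 genes, Idh3a included. The Idh3a coding transcripts Idh3a-201 (0.47 and 0 TPM) and Idh3a-205 (0.18 and 0.34 TPM) were each below Clybl.

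**Figure D4:**
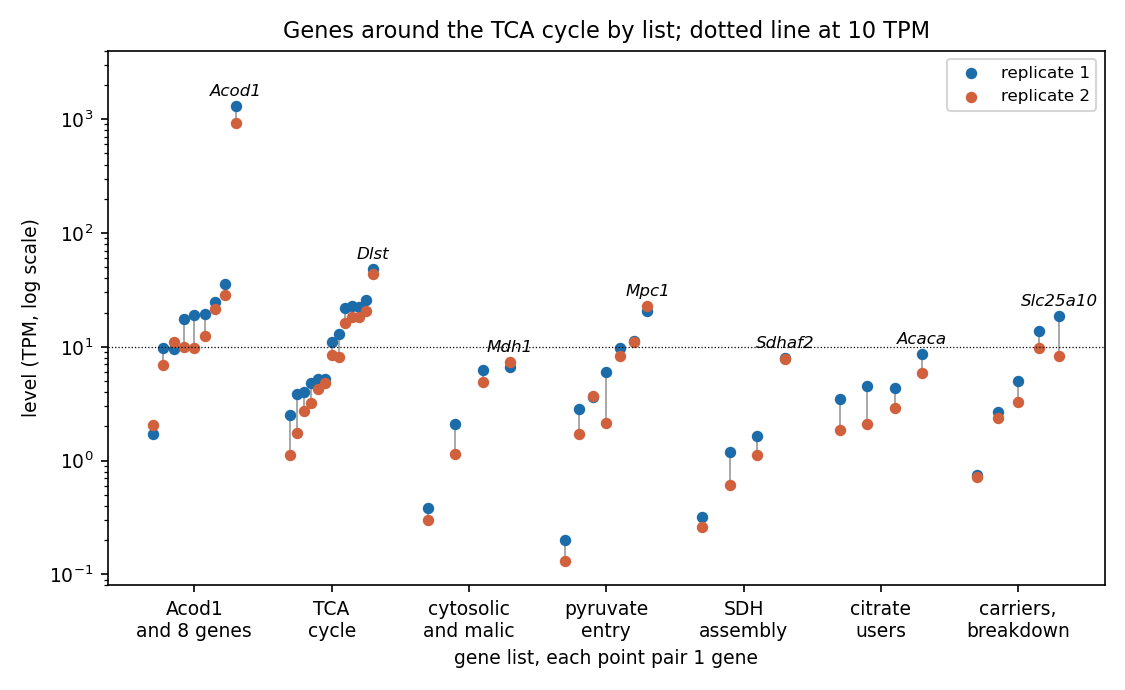
Levels in TPM on a log axis for the 9 genes and the 6 pathway lists; each joined pair of points is 1 gene in the 2 libraries, the highest gene of each list is named, and the dotted line marks 10 TPM. Dlst, at 47.9 and 43.4 TPM, is the highest gene of the lists and lies far under Acod1 at 1295 and 924 TPM.

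The protein-coding genes with levels most like Acod1 were found by Euclidean distance in log2(TPM + 0.1) over the 2 libraries, a measure of likeness in level only. Nearest was Tnf, the gene of the cytokine TNF, at 1424 and 999 TPM (distance 0.18). Sirpa, an inhibitory receptor gene, followed at 1348 and 754 TPM (distance 0.30), then the progranulin gene Grn at 1499 and 762 TPM (0.35), Mpeg1, which encodes perforin-2, at 1197 and 708 TPM (0.40), and the cathepsin S gene Ctss at 1570 and 750 TPM (0.41). With 2 libraries this likeness holds 2 values per gene.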

How the data were processed

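Total RNA-seq of 2 libraries of 1 group was used. The genome was mm10, per the labels, and the annotation GENCODE M21, per the readme files the authors deposited. Which aligner, versions and strand setting were used is not given in the sources used here. In RSEM's format the authors deposited a gene table and a transcript table per library, with expected counts, TPM and a posterior mean TPM. The deposited bounds of a TPM interval, handled as signal values, have no stated level; effective lengths are in bases. The second quantifier is a deposited transcript table in kallisto's format, with estimated counts and TPM, summed here per gene. Signal tracks were not used here.

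The members and lists were chosen with earlier results of these data known. Rows other than annotated genes (1.19% and 0.215% of expected counts) were left out. Expected counts were rounded and scaled by TMM in edgeR 4.0.16 (R 4.3.3) over 14052 genes with a mean of 10 counts or more. DESeq2 1.42.0 size factors were an alternative. The scaling was tested on simulated data. The common coefficient of variation between the libraries was 22.7%. Relative log2 ratios use log2(TPM + 0.1) and genes at 1 TPM or more in both libraries. Similar copies were searched with blastn 2.17.0 over M21 transcripts. Sequences and coordinates come from M21. Tables used Python 3.11.15 with numpy 2.4.6, pandas 2.3.3 and scipy 1.17.1.

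Named by rule were all 9 members, the 4 highest genes of each list and those below 1 TPM in both libraries, the 5 genes nearest to Acod1, and member transcripts with 5% or more of TPM in either library. Sdhc, Sdhd and Idh3g were named besides, as subunits of the same complexes, and all cell type markers were counted. A few genes of these lists stay in the counts but are not reported by name. Alternatives were the second quantifier, the posterior mean, TPM rescaled over protein-coding genes, other pseudocounts, floors and thresholds, no length correction, and each library alone.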

Additional observations from a re-analysis of the deposited data

How the results depend on the processing

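Acod1 stood 6.30 above the median of the other 8 genes in log2 TPM, and between 6.13 and 6.45 with other pseudocounts, the second quantifier, the posterior mean or a single library; without length correction the distance was 7.18. The number of genes at 10 TPM or more, 4, depended on the scale: it was 2 with the second quantifier, 8 with TPM rescaled over protein-coding genes, 9 at a floor of 1 TPM, 1 at 100 TPM, and 5 to 6 in single libraries. No gene was over 2-fold apart under any of the 5 other scalings and filters. By TMM 1 gene, Idh1, was past 1.5-fold, higher in replicate 2, as were 12.1% of 14052 genes. The retained-intron count of 4 was 3 to 5 elsewhere and 1 at a threshold of 25%. The median relative log2 ratio ranged from -0.05 to -0.01. Ordering by the posterior mean, chosen after seeing the data, also left 4 neighbouring pairs apart. The mean level of all 9 genes moved beyond 1 SD with the second quantifier and with rescaled TPM, so absolute levels hold only within the gene tables. No paired analysis was possible because there is only 1 group. With 81 and 77 expected counts, depth limits Idh3a most, and its transcript shares above all.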

Other observations

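Mdh1, the cytosolic malate dehydrogenase gene, changed direction between the libraries with the scale: its relative log2 ratio was 0.59 in TPM and its TMM log2 ratio -0.43. Its effective length in the gene tables was 1892 bases in replicate 1 and 936 bases in replicate 2. Pcx rested on 20 and 12 expected counts in the gene tables and on 56.8 and 54.5 counts of the second quantifier. These genes were singled out after their values were seen.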
